A study of Mus musculus with 44 samples.

Results

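T cell receptor (TCR) α chains carrying Traj12, Traj15, Traj26 or Traj50 were followed across 44 mouse B16 tumours. These 4 joining (J) genes of the α locus were picked because earlier results of the same data showed differences between treatments in their share of α chain CDR3s, so those differences are given here as a description. A fit across all Traj genes gives their size, and its calls support nothing about genes chosen from the same values. Members were the CDR3s of the deposited table ending in GGYKVVF (Traj12), GGRALIF (Traj15), NYAQGLTF (Traj26) or SSFSKLVF (Traj50). They came to 3475 of 35230 distinct α chain (TRA) CDR3s, and of 121860 distinct CDR3s of both chains. Traj12 held 884 of them, Traj15 held 1045, Traj26 held 934 and Traj50 held 612.

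The tumours were B16F10 melanomas, a transplantable mouse line, implanted under the skin of wild-type C57BL/6 mice (C57BL/6J in the methods), age-matched and 7 to 12 weeks old. From each, 100 µg of tissue was taken on day 12, and V(D)J regions of TCR transcripts were captured from its RNA, with 1 library per tumour. There were 15 tumours of mice given AC484, an oral inhibitor of the phosphatases PTPN2 and PTPN1, 15 of mice given anti-PD-1, an antibody against the checkpoint receptor PD-1, and 14 controls, which the labels call vehicle and the methods describe as untreated. The tissue was unsorted bulk tumour, in which fewer T cells using a gene and less receptor RNA per cell cannot be told apart.

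The α chain of a TCR is made in the thymus by joining a V gene to a J gene. Rearrangement begins at the 5′ J genes, and a later join to a J gene further 3′ can replace an earlier one in the same cell, so the position of a J gene along the locus bears on when it is used. The J gene supplies the last residues of the CDR3, the loop that contacts the peptide, while bases trimmed and added at the join make its middle. A CDR3 met in many individuals is called public, and a CDR3 with many reads is here called a large clone, although 1 amino acid CDR3 can come from several T cell clones.

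The germline J segments are shown because their capital bases encode the ending that defines each gene, from the first whole codon to the closing phenylalanine. Coordinates and sequences are from RefSeq on GRCm38, plus strand, and all of them lie on chromosome 14 in the order Traj50, Traj26, Traj15, Traj12 from 5′ to 3′. Traj50 is the 12th, Traj26 the 36th, Traj15 the 47th and Traj12 the 50th of 60 annotated Traj segments, each a single coding segment of the α locus. The positions are chr14:54167590-54167652 for Traj50, chr14:54194490-54194549 for Traj26, chr14:54204422-54204481 for Traj15 and chr14:54206552-54206610 for Traj12.
Traj50: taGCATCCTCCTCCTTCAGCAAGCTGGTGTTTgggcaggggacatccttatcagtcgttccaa
Traj26: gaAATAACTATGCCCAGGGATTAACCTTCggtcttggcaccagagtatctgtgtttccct
Traj15: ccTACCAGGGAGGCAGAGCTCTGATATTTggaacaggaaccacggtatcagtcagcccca
Traj12: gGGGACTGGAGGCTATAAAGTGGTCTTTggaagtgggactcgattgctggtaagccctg

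Translated, the capitals read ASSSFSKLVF for Traj50, NNYAQGLTF for Traj26, YQGGRALIF for Traj15 and GTGGYKVVF for Traj12. Against these germline endings, 59.2% of Traj50 entries (a CDR3 in a tumour) kept all 10 residues, and 42.3% of Traj12 entries kept all 9. For Traj15 the untrimmed ending was rarer, at 31.6%, and 52.0% of entries had lost the first residue only. The endings used to find members left out more trimmed CDR3s, which a shorter match would still give to the same gene. These were 18 entries of Traj12 (1.03%), 40 of Traj15 (1.94%) and 23 of Traj50 (2.43%), but 680 of Traj26 (27.6%), of which 546 had kept 7 residues, 1 short of the limit.

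Reads of both chains per tumour had a median of 249919 with AC484, 242262 with anti-PD-1 and 70012.5 in controls. The median percent of them that were TRA was 31.7%, 8.12% and 18.1% in the same order. TRA reads per tumour numbered 18508 to 315679 (median 67192) with AC484, 10432 to 108156 (median 21959) with anti-PD-1 and 1466 to 24129 (median 8762.5) in controls, and distinct TRA CDR3s from 1153 to 4805, from 538 to 2038 and from 72 to 889 in the same order. The table also names the index primer set of each library, and treatments overlapped in it only in part. AC484 libraries lay in set 3 (7 tumours) and set 4 (8), anti-PD-1 libraries in set 2 (10) and set 3 (5), and control libraries in set 1 (12) and set 2 (2). The TRA part of reads went with the set. In anti-PD-1 libraries it was 4.31% to 9.59% in set 2 and 26.8% to 36.0% in set 3. The 2 control libraries of set 2 had 3.87% and 5.12%. Shares are therefore given over distinct TRA CDR3s of the same tumour. Reads carry no molecular identifiers, so that the 95% Wilson intervals below cover counting error only.

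By the endings used, Traj15 had the most entries of the 4 genes, 2020 (7th of 43 Traj genes that had at least 100 distinct CDR3s). The genes outside the 4 were counted by a match of at least 4 residues. For Traj26, 680 more trimmed entries were left out, so these places do not rank use of the genes on equal terms. The share of Traj15 was lowest with AC484. It ranged from 2.23% to 3.99% (median 3.01%) of distinct TRA CDR3s in AC484 tumours. With anti-PD-1 it was 2.98% to 4.90% (median 3.89%), and it was 2.41% to 8.82% (median 4.34%) in controls. Of the controls 8 of 14 were above every AC484 tumour, but the groups overlapped. The highest control value was that of vehicle 6, with 15 of 170 CDR3s (5.42% to 14.0%), a shallow library. Means were 3.08 ± 0.44% with AC484, 3.89 ± 0.53% with anti-PD-1 and 4.61 ± 1.53% in controls (SD, n = 15, 15 and 14).

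Traj12, with 1735 entries (13th by the same count), was also lowest with AC484, but its highest mean was with anti-PD-1. Its share was 2.07% to 3.38% (median 2.73%) in AC484 tumours, 2.43% to 4.64% (median 3.34%) with anti-PD-1 and 0.588% to 4.81% (median 2.87%) in controls. The control values enclosed all AC484 and anti-PD-1 values. Means were 2.69 ± 0.37% with AC484, 3.34 ± 0.63% with anti-PD-1 and 2.97 ± 1.22% in controls, in which vehicle 6 had a single Traj12 CDR3.

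Traj26, with 1788 entries by its ending (12th by the same count, without the 680 more trimmed ones), went the other way. Its share was 2.69% to 3.91% (median 3.28%) in AC484 tumours, 2.26% to 3.90% (median 2.91%) in anti-PD-1 tumours and 0% to 4.12% (median 1.93%) in controls. Of the controls 10 of 14 were below every AC484 tumour, yet the highest value of all was that of vehicle 6 (7 of 170 CDR3s, 2.01% to 8.25%). Vehicle 5 had no Traj26 CDR3 among 72, which allows a share of up to 4.17%. Means were 3.21 ± 0.35% with AC484, 2.94 ± 0.44% with anti-PD-1 and 2.15 ± 1.05% in controls.

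Traj50, the most 5′ of the 4 genes, was also the rarest, with 924 entries (28th of 43). Its share was 1.07% to 2.21% (median 1.75%) in AC484 tumours, 0.639% to 1.86% (median 1.30%) in anti-PD-1 tumours and 0% to 1.99% (median 1.17%) in controls, again with overlap and with vehicle 5 at 0 of 72. Of 14 controls, 5 were below and 0 above every AC484 tumour. Means were 1.66 ± 0.32% with AC484, 1.27 ± 0.38% with anti-PD-1 and 1.12 ± 0.62% in controls.

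**Figure D1:**
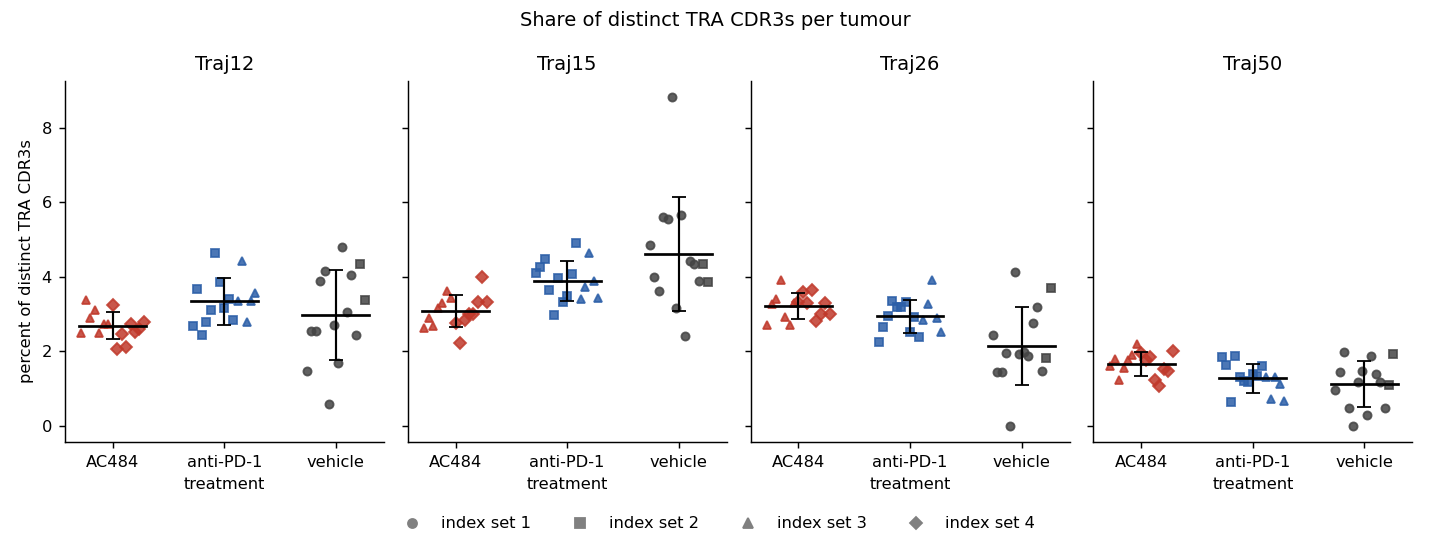
Percent of distinct TRA CDR3s per tumour (vertical axis) for each gene, by treatment, with 1 point per tumour, its shape giving the index primer set, and the mean ± SD in black. Traj15 means were 3.08% with AC484, 3.89% with anti-PD-1 and 4.61% in controls, Traj26 means 3.21%, 2.94% and 2.15% in the same order, and the control tumours spread most.

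Numbers of distinct CDR3s per Traj gene were then fitted with edgeR across all 43 genes and 44 tumours, which gives the size of each difference relative to the other Traj genes. AC484 minus vehicle was -0.45 ± 0.11 (log2 fold change ± SE) for Traj15 and 0.47 ± 0.13 for Traj26, against -0.19 ± 0.13 for Traj12 and 0.40 ± 0.19 for Traj50. For anti-PD-1 minus vehicle it was -0.13 ± 0.11 for Traj15, 0.12 ± 0.13 for Traj12, 0.35 ± 0.14 for Traj26 and 0.03 ± 0.21 for Traj50. AC484 minus anti-PD-1 was -0.32 ± 0.08 for both Traj12 and Traj15, 0.12 ± 0.08 for Traj26 and 0.36 ± 0.12 for Traj50. The 3 comparisons share their tumours, and the median over all 43 genes was 0.09, 0.02 and -0.02 in the same order.

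At an adjusted p under 0.05 over all genes tested, 2 of the 4 members (Traj15 and Traj26) were past the threshold in AC484 minus vehicle, where 9.3% of all Traj genes were (4 of 43, with 1 higher, or 2.33%, and 3 lower, or 6.98%). In anti-PD-1 minus vehicle none of the 4 was, beside 2.33% of all Traj genes (1 of 43, lower). In AC484 minus anti-PD-1 it was 3 of the 4 (Traj12, Traj15 and Traj50), again beside 9.3% (4 of 43, with 1 higher, or 2.33%, and 3 lower, or 6.98%). As the genes were chosen from these comparisons, these counts are no result about them, and several depended on the setting. Of the 5 calls of members, 1 remained when reads were counted (Traj15 in AC484 minus vehicle). Counting reads also put Traj15 and Traj50 past the threshold in anti-PD-1 minus vehicle. In CDR3s of at least 2 reads 3 of the 5 calls remained. Traj12 and Traj50 in AC484 minus anti-PD-1 were lost there, and Traj26 in anti-PD-1 minus vehicle was past the threshold. DESeq2 lost Traj50 in AC484 minus anti-PD-1. Traj26 was no longer past the threshold in AC484 minus vehicle without vehicle 7 or without anti-PD-1 15, nor was Traj50 in AC484 minus anti-PD-1 without AC484 7, anti-PD-1 12, anti-PD-1 14 or anti-PD-1 15. The lowest fold change of each comparison was that of Traj7, at -0.93, -0.56 and -0.37 for AC484 minus vehicle, anti-PD-1 minus vehicle and AC484 minus anti-PD-1. The highest was that of Traj26 in the first, Traj28 (0.44) in the second and Traj50 in the last.

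**Figure D2:**
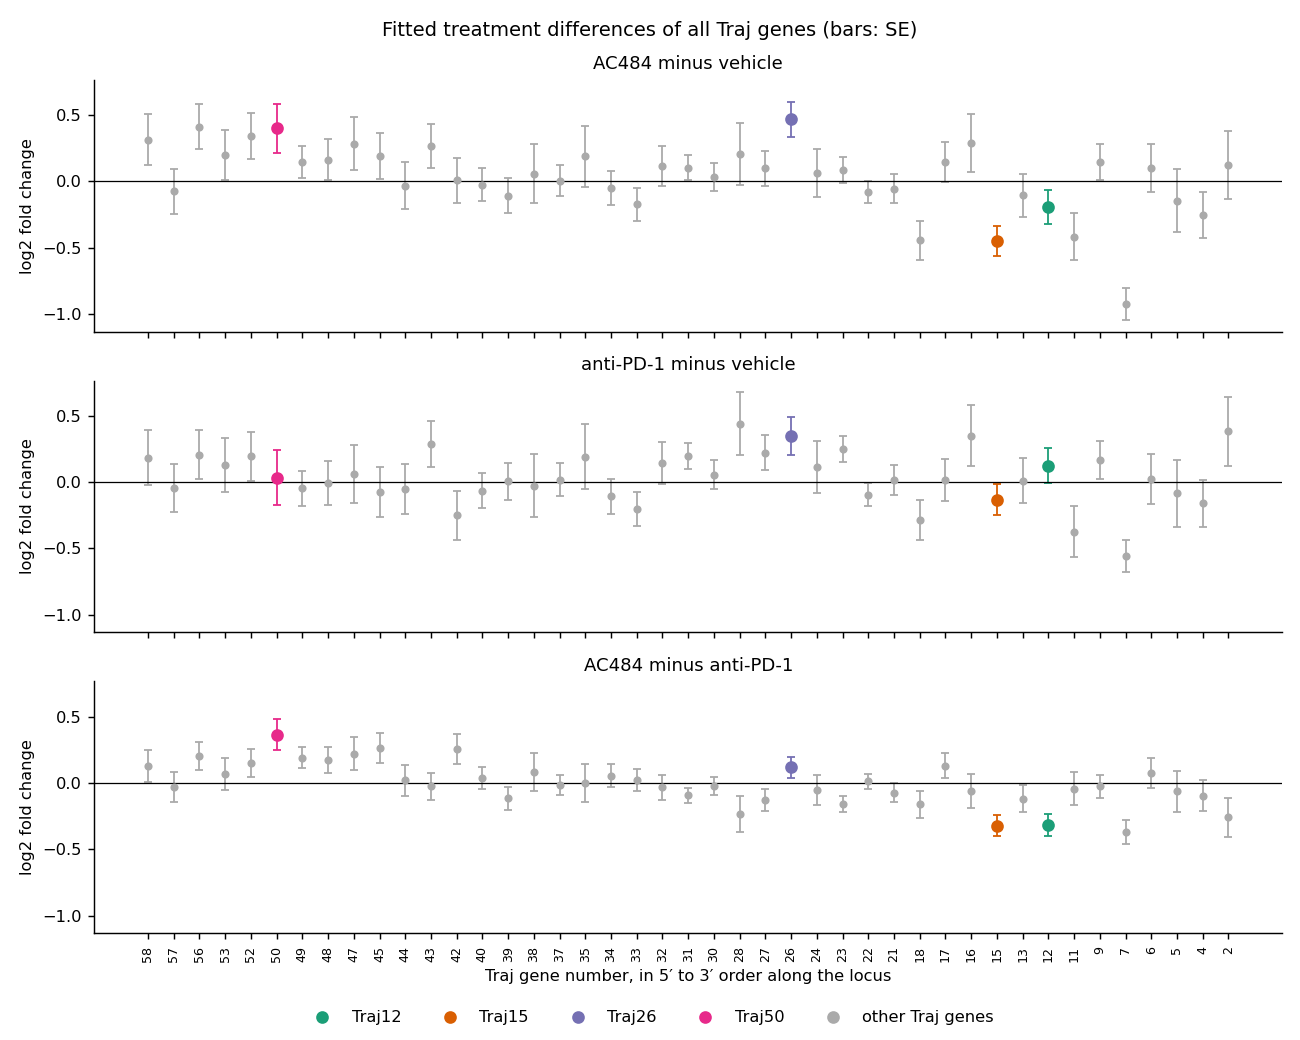
Fitted log2 fold changes (vertical axis, bars SE) of 43 Traj genes in 5′ to 3′ order along the locus (horizontal axis), 1 panel per comparison, with the 4 genes in colour. In AC484 minus vehicle Traj26 is at 0.47, near Traj56 (0.41) and Traj50 (0.40). Traj15 is at -0.45 there, near Traj18 (-0.45) and Traj11 (-0.42), with Traj7 (-0.93) lower. In AC484 minus anti-PD-1 Traj50 is at 0.36, and Traj12 and Traj15 are both at -0.32, near Traj7 (-0.37).

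The differences did not hold equally well against the index primer sets. No set held both AC484 and control libraries, so no AC484 minus vehicle difference can be told apart from the sets. With the set as a block, which links these groups only through anti-PD-1 tumours, Traj26 gave -0.05 ± 0.32 for AC484 minus vehicle. Traj15 gave -0.31 ± 0.29 (edgeR, adjusted p = 0.71). Of the 5 calls of members only Traj50 in AC484 minus anti-PD-1 remained with this block (0.77 ± 0.21). In anti-PD-1 minus vehicle the block gave -0.19 for Traj12, -0.13 for Traj26 and -0.22 for Traj50, each above 0 without it. AC484 and anti-PD-1 met within set 3, with 7 and 5 tumours, where Traj15 averaged 3.10 ± 0.38% with AC484 and 3.82 ± 0.51% with anti-PD-1, and Traj12 averaged 2.83 ± 0.33% with AC484 and 3.49 ± 0.60% with anti-PD-1. Traj50 averaged 1.72 ± 0.31% with AC484 and 1.02 ± 0.31% with anti-PD-1 in that set. The fits within set 3 gave -0.23 for Traj15, -0.33 for Traj12, 0.78 for Traj50 and 0.08 for Traj26, the same directions as over all tumours, but of Traj12, Traj15 and Traj50 only Traj50 was still past the threshold. Anti-PD-1 and control tumours shared set 2, with 10 and 2 tumours, where Traj26 averaged 2.87 ± 0.40% with anti-PD-1 and 2.75 ± 1.33% in controls. When every tumour was drawn to 1466 TRA reads, the fold changes of AC484 minus vehicle were -0.56 for Traj15, -0.15 for Traj12, 0.38 for Traj26 and 0.15 for Traj50, and those of AC484 minus anti-PD-1 were -0.37, -0.22, 0.02 and 0.12 in the same order, so that Traj50 lost most of its difference.

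Counting reads in place of distinct CDR3s changed the picture, and a few large clones held much of each gene. The 4 genes together took 10.98% of TRA entries but 5.30% of TRA reads. Traj15 took 0.320% to 2.86% (median 1.49%) of TRA reads in AC484 tumours, 1.16% to 3.83% (median 1.77%) in anti-PD-1 tumours and 0.429% to 37.0% (median 2.79%) in controls. The highest of these was vehicle 13, whose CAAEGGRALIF had 1172 of 3385 TRA reads, or 34.6% (33.0% to 36.2%). The same CDR3 had 14 reads in another control and 1 read each in 1 AC484 and 3 anti-PD-1 tumours. How much of the read-based fold changes of Traj15 against controls came from vehicle 13 was not tested.

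Large Traj26 clones were found in tumours of all 3 treatments. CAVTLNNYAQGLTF had 4797 reads in AC484 13 (5.64% of TRA reads), and at most 34 in 5 other tumours. A CDR3 of 16 residues starting CAM had 1535 reads in anti-PD-1 11 (1.42%), 934 in anti-PD-1 4 (2.68%) and 928 in vehicle 6, where it was 11.2% (10.5% to 11.9%) of TRA reads. These 3 libraries carried index sets 3, 2 and 1. This CDR3 was listed in 18 tumours, of which 7 were left without counts under 1% of its largest. With its largest clone left out of every tumour, the median read share of Traj26 was 0.709% in AC484 tumours, 0.829% in anti-PD-1 tumours and 0.407% in controls.

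For Traj50 the largest clones were in anti-PD-1 tumours. Its share of TRA reads was 0.162% to 2.73% (median 0.319%) with AC484, 0.0998% to 6.06% (median 0.428%) with anti-PD-1 and 0% to 0.814% (median 0.351%) in controls. A CDR3 of 15 residues starting CAL had 1967 reads in anti-PD-1 4 (5.65%, interval 5.41% to 5.89%) and 1766 in anti-PD-1 2 (4.75%), both in index set 2. It was in 4 anti-PD-1 tumours, in 2 controls with 61 and 2 reads, and in no AC484 tumour. The largest Traj50 clone with AC484, of 15 residues starting CAV, had 1555 reads (1.79%) in AC484 7.

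Traj12 had its largest clones in 1 AC484 tumour and 1 control. A CDR3 of 12 residues starting CAA had 3098 reads in AC484 6 (3.22% of TRA reads), 59 in an anti-PD-1 tumour, 2 in a control and a few in 3 other AC484 tumours. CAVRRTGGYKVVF, in vehicle 9 only, had 198 of 3156 reads (6.27%, interval 5.48% to 7.17%). In anti-PD-1 tumours the clone with most reads, of 13 residues and also starting CAA, had 382 in anti-PD-1 14 (0.478%). By share of TRA reads the largest there was a CDR3 of 14 residues starting CAL, with 274 reads in anti-PD-1 9 (1.70%). Over all tumours Traj12 took 0.329% to 4.59% (median 1.49%) of TRA reads with AC484, 0.689% to 3.44% (median 1.26%) with anti-PD-1 and 0.0675% to 7.45% (median 0.920%) in controls.

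**Figure D3:**
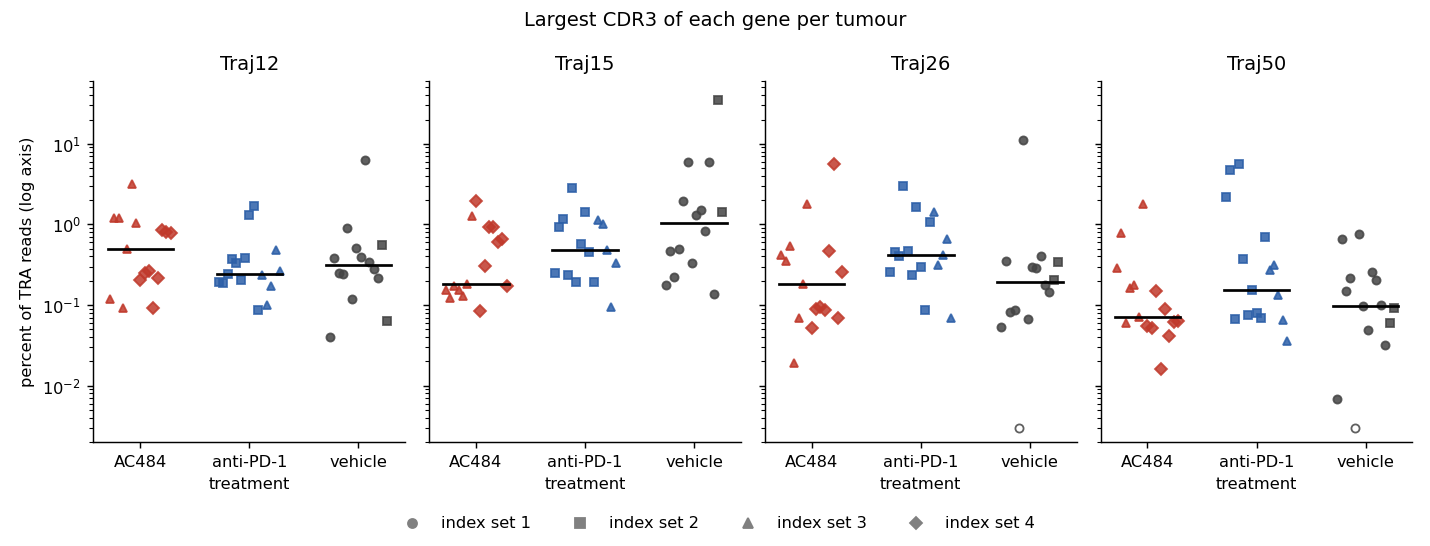
Largest CDR3 of each gene as a percent of all TRA reads of the tumour (vertical log axis), by treatment, 1 point per tumour with the median in black and open circles at the bottom for a tumour with no CDR3 of the gene. The highest points are vehicle 13 for Traj15 (34.6%), vehicle 6 for Traj26 (11.2%) and vehicle 9 for Traj12 (6.27%), and for Traj50 anti-PD-1 4 (5.65%).

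Most CDR3s were met in 1 tumour only: 67.8% for Traj12, 68.6% for Traj15, 68.3% for Traj26 and 76.6% for Traj50, beside 75.3% for the other TRA CDR3s. At least 10 tumours held 19 CDR3s of Traj12 (2.15%), 20 of Traj15 (1.91%), 18 of Traj26 (1.93%) and 2 of Traj50 (0.327%), against 359 of the others (1.13%). The most shared CDR3s are described because they differ from the germline endings by a few residues only. Most of them joined CAA or CAV to a whole or nearly whole J ending.

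The most shared of all was the Traj12 CDR3 of 13 residues that joins CAAS to the whole germline ending, in 12 of 15 AC484 tumours, 13 of 15 anti-PD-1 tumours and 2 of 14 controls. It kept all 9 germline residues, had 546 reads in AC484 6 and a median of 6 where it was found, and stood in 14 tumours once counts under 1% of its largest were left out. The Traj12 CDR3s of 12 residues that follow were CAAR joined to the ending less its first residue, in 10 AC484, 6 anti-PD-1 and 3 control tumours, and CAA joined to the whole ending, in 9, 5 and 4. For Traj15, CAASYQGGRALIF was in 11 AC484, 8 anti-PD-1 and 6 control tumours, with at most 70 reads in any of them and all 25 left without the low counts. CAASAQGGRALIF was in 6, 10 and 5 of them, and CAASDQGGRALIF in 9, 8 and 3. These 3 Traj15 CDR3s share their length of 13 residues and their CAAS start.

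For Traj26, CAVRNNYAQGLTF was in 9 AC484, 9 anti-PD-1 and 1 control tumour and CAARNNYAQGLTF in 11 AC484 tumours, 8 anti-PD-1 tumours and no control, both with all 9 germline residues. The third was the CAM CDR3 given above, in 4 AC484, 8 anti-PD-1 and 6 control tumours. Traj50 had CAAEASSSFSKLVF in 9 AC484, 4 anti-PD-1 and 4 control tumours, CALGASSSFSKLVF in 4, 4 and 3, and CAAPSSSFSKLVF in 5, 3 and 1, the last mainly from 336 reads in AC484 7. Controls were sequenced least, and the part of depth in these counts was not tested.

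Of the 142 Traj12 CDR3s of controls, 58.5% were also found with AC484, and 47.1% of 170 for Traj15, 53.3% of 105 for Traj26 and 47.5% of 59 for Traj50, beside 42.6% of the other TRA CDR3s. Read from the AC484 side, 13.5% of 615 Traj12 CDR3s, 11.6% of 689 Traj15 CDR3s, 8.07% of 694 Traj26 CDR3s and 6.02% of 465 Traj50 CDR3s were also in a control. Across all 3 groups the numbers were 53 for Traj12, 55 for Traj15, 38 for Traj26 and 15 for Traj50.

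The genes were also set against the other TRA CDR3s of the same tumour, which removes depth, primer set and treatment as differences between the sides. These measures were no part of how the genes were chosen, but the endings bear on them. Members had to keep 7 or 8 germline residues and the other CDR3s only 4, so trimming differs between the sides. Over tumours with at least 5 CDR3s of the gene, 28 differences were tested with two-sided sign-flip permutation tests over tumours and Benjamini-Hochberg adjustment. The smallest p that 100000 resamples can give is 1e-05. The tumours are not fully independent, because a CDR3 found in several tumours adds to the value of each. CDR3s found in more than 1 tumour made up 65.5% of Traj12, 64.5% of Traj15, 64.3% of Traj26 and 49.2% of Traj50 entries. The sign flips treat tumours as independent, so the p-values of sharing overstate the evidence. The p-values of length and first residues rest on the same recurring CDR3s, and the size of this effect on them was not tested. Beside those of sharing and length is the place among the same differences of all 43 Traj genes, since a difference from the rest of the repertoire need not be particular to a gene.

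A larger part of Traj12 and Traj15 CDR3s was shared with another tumour than of the other TRA CDR3s. The same held for Traj26 only with its more trimmed CDR3s left out. For Traj12 it was 67.5%, against 57.0% of the others in the same tumours, higher in 37 of 41 tumours (permutation test, adjusted p = 3.1e-05), the 4th highest difference of 43 genes. For Traj15 it was 66.0%, against 57.4% (higher in 38 of 43, permutation test, adjusted p = 3.1e-05, 7th highest). For Traj26 it was 66.9%, against 57.5% (higher in 33 of 41, permutation test, adjusted p = 3.1e-05, 5th highest). Only Traj26 lost this when the more trimmed CDR3s were counted with it, at -0.24 percentage points (permutation test, adjusted p = 0.9). Those CDR3s were 27.6% of Traj26 entries but 1.03% for Traj12 and 1.94% for Traj15, so this count could hardly change the last 2 genes. Traj50 CDR3s were shared at 54.9%, against 56.8%, lower in 22 of 36 tumours (permutation test, adjusted p = 0.59, 17th highest). With tumours of at least 20 Traj50 CDR3s, which left 17, that difference was -8.69 percentage points (permutation test, adjusted p = 0.00089). This limit left out every control, as controls had at most 13 Traj50 CDR3s. With at least 5 the mean difference was -5.03 points with AC484, -2.34 with anti-PD-1 and 6.58 in 6 controls.

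Traj50 CDR3s were longer than the rest of the α repertoire and those of the other 3 genes shorter. In each tumour Traj50 CDR3s averaged 14.7 residues and the other TRA CDR3s 13.6, longer in 36 of 36 tumours (permutation test, adjusted p = 3.1e-05), the 6th largest difference of 43 genes. Traj12 CDR3s averaged 13.2 residues, against 13.6, shorter in 39 of 41 tumours, and Traj15 CDR3s 13.3, against 13.6, shorter in 41 of 43 (permutation tests, adjusted p = 3.1e-05 for both), the 9th and 10th shortest of 43 genes. Traj26 CDR3s were shorter by 0.10 residues, in 26 of 41 tumours (permutation test, adjusted p = 0.048, 14th shortest), a call lost without any of 26 single tumours and in CDR3s of at least 2 reads (adjusted p = 0.085). Outside the germline J part, distinct CDR3s of Traj50 averaged 5.52 residues and the other TRA CDR3s also 5.52, so the extra length lay in the J residues kept (9.40 for Traj50 and 8.28 for the others, the ending used to choose Traj50 requiring 8). Mean lengths by treatment were close to each other. Traj50 averaged 14.7 residues in AC484, anti-PD-1 and control tumours, and Traj12 averaged 13.2, 13.2 and 13.1 in the same order.

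**Figure D4:**
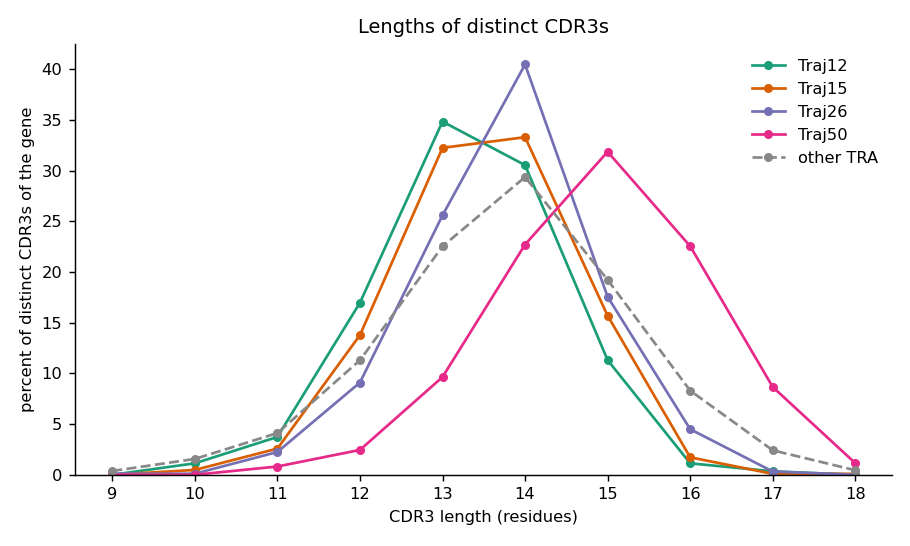
Percent of the distinct CDR3s of each gene (vertical axis) by length in residues (horizontal axis), with the other TRA CDR3s as a dashed line. Mean lengths over distinct CDR3s were 13.3 for Traj12, 13.5 for Traj15, 13.8 for Traj26, 14.9 for Traj50 and 13.8 for the others.

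Mean reads per distinct CDR3 were lower for all 4 genes than for the rest of the TRA repertoire, as they were for most J genes. The log2 ratio was -1.34 for Traj12 (lower in 37 of 41 tumours), -0.96 for Traj15 (38 of 43), -1.42 for Traj26 (37 of 41) and -1.56 for Traj50 (32 of 36), with adjusted p = 3.1e-05 for Traj12, Traj26 and Traj50 and 5.6e-05 for Traj15 (permutation tests). Of all 43 Traj genes 41 were below 0, with a median of -1.23 and Traj7 highest at 2.58, so a low mean is no mark of these genes. By the median reads of a CDR3, a measure chosen after seeing the data, Traj15 was higher by 0.32 on the log2 scale (higher in 29 and lower in 2 of 43 tumours, permutation test, adjusted p = 8e-05), the 3rd highest of 43 genes. By the same measure Traj12 was at 0.02, Traj26 at -0.03 and Traj50 at -0.07 (permutation tests, adjusted p = 0.8, 0.8 and 0.68).

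**Figure D5:**
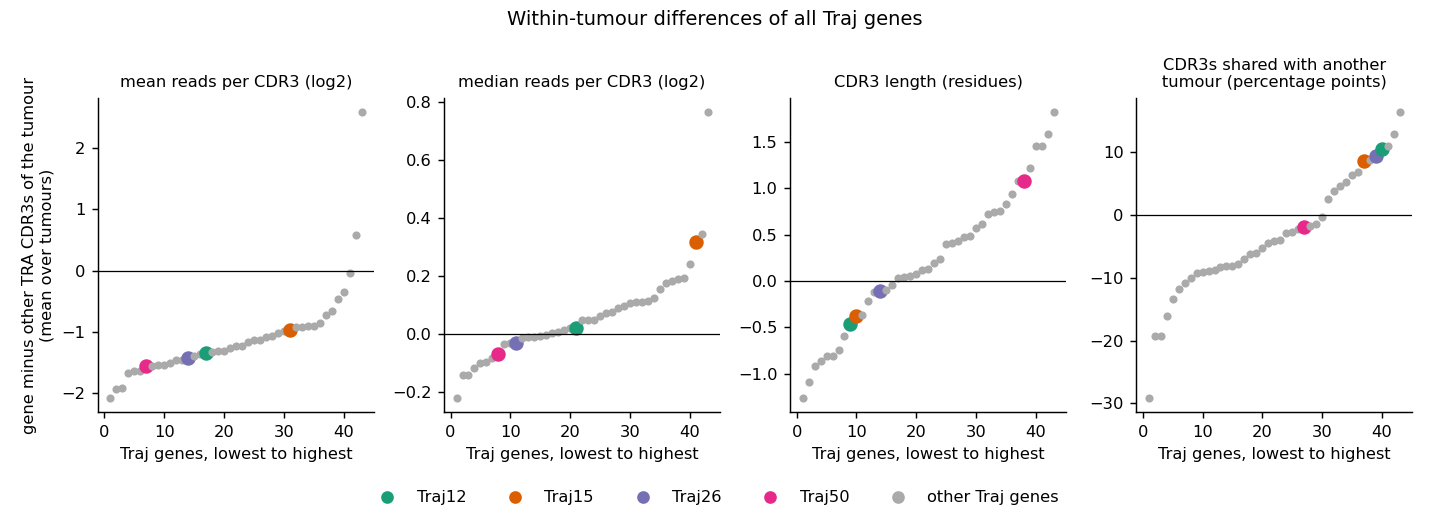
Mean difference between each of 43 Traj genes and the other TRA CDR3s of the same tumour (vertical axes), ordered from lowest to highest in each panel, for mean and median reads per CDR3, CDR3 length and the percent of CDR3s shared with another tumour. The 4 genes are in colour: 41 genes lie below 0 in mean reads, while Traj12 (10.5 points), Traj26 (9.35) and Traj15 (8.61) lie near the top in sharing and Traj50 (1.08 residues) near the top in length. Traj26 was no longer above the others in sharing when its more trimmed CDR3s were counted.

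The first 3 residues of a CDR3 come from the V gene, which the table does not name. Of 16 comparisons of the CAA, CAV, CAL and CAM starts, 1 passed: 14.5% of Traj50 CDR3s started with CAV, against 19.2% of the other TRA CDR3s, lower in 28 of 36 tumours (permutation test, adjusted p = 0.0049). The starts of Traj12 were closest to the rest, with 31.5% CAA, against 31.9% (permutation test, adjusted p = 0.79). Traj26 had 21.8% CAV, against 18.9%, higher in 29 of 41 tumours without passing (permutation test, adjusted p = 0.12).

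Across the 44 tumours, the Traj genes whose log2 share moved most like that of each member were found by Pearson correlation, as a description only, since all shares come from the same libraries and sum to a whole. Traj12 was most like Traj42 (r = 0.63) and Traj48 (0.48). Traj15 was most like Traj7 (0.63) and Traj33 (0.62). Traj26 was nearest to Traj56 (0.48) and Traj23 (0.47), and Traj50 to Traj26 (0.32) and Traj23 (0.31). Among the members, Traj15 ran opposite to Traj50 (-0.44) and Traj26 (-0.26). Traj12 ran opposite to Traj26 (-0.29) and also to Traj15 (-0.24), and was at -0.09 with Traj50.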

How the data were processed

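The deposited table holds, for each tumour, the read count of every amino acid CDR3, made by the authors with MiXCR from MiSeq reads of SMARTer libraries. The submitters' notes name mm10. It gives no chain, V gene or nucleotides, and the methods' equal total per replicate is not applied. A CDR3 was given the chain and J gene whose germline ending it matched over the most residues (at least 4), among 46 TRA and 12 TRB endings (GRCm38, RefSeq). Of the entries 34.5% were TRA.

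Distinct CDR3s per Traj gene (minimum 100) were fitted with edgeR 4.0.16 (quasi-likelihood, TMM) in R 4.3.3. On simulated counts of 43 genes it called 79% of genes changed 1.5-fold in AC484 minus vehicle and 0.606% of unchanged genes. The simulation used the same spread for all genes and no effect of the index set, so these rates do not cover differences between the sets. DESeq2 1.42.0, other filters, blocks and left-out tumours were alternatives. Other steps used statsmodels 0.14.6, pandas 2.3.3 and NumPy 2.4.6 under Python 3.11.15.

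Genes, endings, lists and tests were chosen with earlier results of these data known. Named items were the 4 genes, the 2 most similar genes of each, its 3 CDR3s in most tumours, its highest count per treatment and the extreme Traj gene of each comparison. Traj18 and Traj11 were named for a fold change close to that of Traj15. Replicates are separate tumours. The deposited clone fractions were not used.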

Additional observations from a re-analysis of the deposited data

How the results depend on the processing

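Counting reads gave fold changes in AC484 minus vehicle of -2.10 for Traj15 and -0.13 for Traj26, in anti-PD-1 minus vehicle of -1.66 for Traj15 and 1.80 for Traj50, and in AC484 minus anti-PD-1 of 0.07 for Traj12, -0.50 for Traj26 and -1.32 for Traj50. With the index set as a block Traj26 gave -0.05 in AC484 minus vehicle and -0.13 in anti-PD-1 minus vehicle, and within set 2 the last was -0.12. The number of Traj genes past the threshold was 4, 1 and 4 in AC484 minus vehicle, anti-PD-1 minus vehicle and AC484 minus anti-PD-1. It was 8 and 1 in the last 2 comparisons with reads counted, 1, 0 and 0 drawn to equal reads (mean of 10 draws), 0, 0 and 1 with the index set as a block, 0 within set 2 and 1 within set 3, 2 in anti-PD-1 minus vehicle with at least 2 reads and 0 without counts under 1% of the largest, and 2 in AC484 minus anti-PD-1 with DESeq2. Leaving out 1 tumour gave 2 to 4 genes in AC484 minus vehicle (2 without vehicle 7), 1 in anti-PD-1 minus vehicle and 3 to 6 in AC484 minus anti-PD-1. Signs also changed with reads counted and with the index set as a block for Traj12 in anti-PD-1 minus vehicle (-0.14 and -0.19), with the block for Traj50 in the same comparison (-0.22), and in CDR3s of at least 2 reads for Traj12 in AC484 minus vehicle (0.11). In AC484 minus anti-PD-1 Traj50 was 0.77 with the block and 0.12 drawn to equal reads.

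The replicate numbers of the labels did not pair the tumours: 3 of 14 same-numbered pairs correlated above 0.1 in each comparison, and 5 of 44 tumours were most like one with their own number. With a replicate block the counts were again 4, 1 and 4.

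Within tumours, the sharing of Traj26 was -0.24 with members by the longest match. Its length difference was -0.10 (adjusted p = 0.085) in CDR3s of at least 2 reads, -0.10 (0.063) without Traj7 among the others, -0.11 within anti-PD-1 tumours and -0.02 within controls, and -0.13 to -0.09 with a tumour left out. Sharing of Traj50 was -8.69 in tumours with at least 20 of its CDR3s, none of them a control, and 6.58 within controls. By median reads, chosen after seeing the data, the ratios were 0.02 for Traj12, 0.32 for Traj15, -0.03 for Traj26 and -0.07 for Traj50. No longer past the threshold were, within anti-PD-1 tumours, sharing of Traj26 (6.16), and within controls sharing of Traj12 (10.12) and Traj26 (13.19), reads of Traj15 (-0.56) and Traj50 (-1.76) and length of Traj50 (1.10). The comparisons of first residues past the threshold numbered 0 to 6 over the settings. Few CDR3s per control tumour, down to 72, limit all shares there.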
